A study of Mus musculus with 4 samples.

Results

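A set of 10 enzymes and enzyme partners of ADP-ribosylation was followed in MC38 cells, a mouse colon carcinoma line: the ADP-ribosyltransferases Parp1, Parp2, Parp3, Parp8, Parp9, Parp10, Parp11, Parp12 and Parp14, and the ubiquitin ligase Dtx3l. They were chosen by name, as the rows of the count table whose NCBI gene ID maps to these symbols, with Parp1 and Parp2 included as relatives not known to respond to interferon. All 10 were found among the 27179 genes of the table, and all 10 were among the 13580 genes that passed the filter on low counts. RNA-seq was done on 4 cultures of wild type MC38, 1 library for each condition. The conditions were untreated cells in normoxia (20% oxygen), untreated cells in hypoxia (1.5% oxygen), IFN-γ in normoxia and IFN-γ in hypoxia. IFN-γ was at 5 ng/mL for 24 h. This dose, this time and the oxygen levels are those the study's methods give for most experiments, and the sample labels do not state them. The libraries held between 34302971 and 34537939 counts, so that 3 counts, taken as the floor of detection, corresponded to at most 0.0876 CPM (counts scaled to the library's normalized total).

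ADP-ribosyltransferases take ADP-ribose from NAD+ and attach it to proteins or nucleic acids. Parp1 and Parp2 build poly(ADP-ribose) chains at DNA breaks, and Parp3 also acts at breaks. Most other family members transfer a single ADP-ribose unit, and some, such as Parp9 and Parp14, carry macrodomains that bind ADP-ribose. Several of them are known as interferon-stimulated genes with roles in the response to viruses. IFN-γ binds its receptor, the receptor-bound kinases Jak1 and Jak2 become active, and the signal reaches promoters through a DNA element called GAS, whereas the ISRE element is bound by IRF proteins and by complexes that hold Stat2 and Irf9.

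The identity of the cells was read from fixed markers. Of the epithelial markers, Krt8 had 48 to 90 counts per library, Krt18, Krt19 and Epcam had at most 18, and Cdh1 had 0 in all 4 libraries, while the mesenchymal marker Vim had 74838 to 81307. The label of colon cancer cells is therefore not borne out by these epithelial markers. The 6 immune markers summed to 3 to 13 counts per library, with Cd8a, Adgre1 and Itgam at 0, the 2 endothelial markers to 26 to 50 and the 2 stromal markers Col1a1 and Pdgfra to 1106 to 1374. Across these 4 lists, no tested marker passed the test for either stimulus. In bulk RNA, a change in the share of responding cells and a change in RNA per cell cannot be told apart.

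The genes lie at the following places in the mouse genome, by RefSeq coordinates of GRCm38.p6, the assembly that corresponds to the mm10 build named in the submitters' processing notes. Parp14 (gene ID 547253, chr16:35831892-35871518, minus strand), Dtx3l (209200, chr16:35926515-35939027, minus strand) and Parp9 (80285, chr16:35938470-35972621, plus strand) are neighbours on chromosome 16 and together span 141 kb. Parp11 (101187, chr6:127446830-127514233, plus strand) and Parp12 (243771, chr6:39086412-39118349, minus strand) are both on chromosome 6. Parp10 (671535) is at chr15:76232995-76243440 on the minus strand and Parp8 (52552) at chr13:116850842-117026019 on the minus strand. Parp3 (235587) is at chr9:106470322-106476949 on the minus strand. The relatives Parp1 (11545) and Parp2 (11546) are on the plus strand at chr1:180568891-180600999 and chr14:50807897-50821301.

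Promoter sequences were read from RefSeq windows of 300 bases, 250 before and 50 after an annotated start, and were matched for 7 of the 10 genes, with 8 windows in all. Windows for Parp9, Parp10 and Parp14 were not analysed here. The letters searched were TTCNNNGAA for the GAS, which is its own reverse complement, and GAAANNGAA on both strands for the core of the ISRE. Shown are the start region of Dtx3l (chr16:35938978-35939277, minus strand), the member window that held a match, that of Parp11 (chr6:127446590-127446889, plus strand), and, as a relative not known to be inducible, Parp1 (chr1:180568641-180568940, plus strand), each 5′ to 3′ with the matched bases in capitals.
Dtx3l: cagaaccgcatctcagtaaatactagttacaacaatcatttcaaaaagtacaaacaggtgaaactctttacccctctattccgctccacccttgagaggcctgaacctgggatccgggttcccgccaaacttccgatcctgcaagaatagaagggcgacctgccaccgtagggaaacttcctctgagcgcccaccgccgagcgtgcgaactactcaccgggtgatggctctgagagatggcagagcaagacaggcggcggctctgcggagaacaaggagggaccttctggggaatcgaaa
Parp11: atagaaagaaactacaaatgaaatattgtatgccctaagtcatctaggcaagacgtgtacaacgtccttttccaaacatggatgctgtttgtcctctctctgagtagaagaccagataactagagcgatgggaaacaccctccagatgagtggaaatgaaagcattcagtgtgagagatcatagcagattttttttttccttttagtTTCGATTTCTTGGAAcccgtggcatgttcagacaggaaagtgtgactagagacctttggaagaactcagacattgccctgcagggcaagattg
Parp1: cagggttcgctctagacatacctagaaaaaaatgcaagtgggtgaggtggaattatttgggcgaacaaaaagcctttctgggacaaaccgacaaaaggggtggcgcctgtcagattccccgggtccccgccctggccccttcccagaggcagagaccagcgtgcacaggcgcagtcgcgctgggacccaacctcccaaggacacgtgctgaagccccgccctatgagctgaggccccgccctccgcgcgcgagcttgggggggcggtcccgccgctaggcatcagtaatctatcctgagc
In the Parp11 window, the ISRE core started 43 bases before the annotated start and the GAS 37 bases before it, and the matches shared 3 bases. The second Parp11 window and the windows of Parp1, Parp2, Parp3, Parp8, Parp12 and Dtx3l held neither set of letters. Among 32851 windows of the RefSeq table, 8.3% held the GAS letters, 8.56% the ISRE core, 1.07% both and 84.2% neither. The Dtx3l window also holds an annotated transcript start of Parp9 on the opposite strand, at position 267 of the printed sequence, counted from 1 at its 5′ end, and a GENCODE start of Dtx3l at position 127. A match of letters is not a bound site, and the lack of one concerns only these 300 bases.

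The first question was which of these genes differed between cells with and without IFN-γ. With IFN-γ, 8 of the 10 rose: Parp14 by 4.16-fold, Parp10, Parp9, Dtx3l, Parp12 and Parp11 by 2.19- to 2.81-fold, and Parp3 and Parp8 by 1.65- and 1.4-fold. None fell, and Parp1 and Parp2 did not pass the test. Fold changes and adjusted p-values are from edgeR's quasi-likelihood test with oxygen and IFN-γ as separate terms. Over all 13580 tested genes, 4.76% were raised by IFN-γ and 1.1% were lowered, against 8 and 0 of these 10. The median log2 change was 1.23 over the 10 genes and -0.01 over all tested genes. These genes were named with earlier results of the same libraries known, so the counts describe them and are not an independent test. With 1 library per condition, the only information on spread is the departure of genes from additive effects, at 1 residual degree of freedom. Variation from culture to culture and an interaction of IFN-γ with oxygen therefore cannot be told apart. The fitted standard errors (SE) did not follow each gene's own departure. Parp9 and Parp12 had SEs of 0.0582 and 0.0583 for IFN-γ. Their hypoxic minus normoxic IFN-γ log2 ratios were -0.12 and -0.02. The SEs and p-values of this fit are thus not measures of each gene's own departure.

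Parp14, a large macrodomain protein with mono-ADP-ribosyltransferase activity, had the largest change of the 10. It had 1711 counts in the control library in normoxia, 1986 in the control in hypoxia, 7112 with IFN-γ in normoxia and 8110 with IFN-γ in hypoxia. Both IFN-γ libraries lay above both controls. In CPM, this separation was seen in 8 of the 10 genes and in 15.3% of all tested genes. The log2 change was 2.06 (SE 0.0625, adjusted p = 7.27e-226, edgeR), which ranked 114 among the 13580 changes from the highest. The size of this p rests on the fit. Over the 6 alternative fits Parp14's adjusted p ran from 8.24e-143 by DESeq2 to 0.00023 in edgeR without the oxygen term. With DESeq2 size factors in the same edgeR model it was 1.03e-19. For each of the 8 raised genes, the adjusted p of the main edgeR fit lay below those of all 6 alternatives. The sizes of these p-values are therefore not stable. The single pairs gave log2 ratios of 2.07 in normoxia (95% interval 1.99 to 2.15) and 2.04 in hypoxia (1.97 to 2.11). All intervals of single pairs cover counting error only.

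Parp9 and Dtx3l form a heterodimer in which Dtx3l is the ubiquitin ligase and Parp9 the macrodomain partner. Parp9 had 3119, 3802, 8721 and 9818 counts in the order control in normoxia, control in hypoxia, IFN-γ in normoxia and IFN-γ in hypoxia, an order kept for all counts below. Dtx3l had 2161, 2570, 5735 and 6283 counts. For each of them, the lower IFN-γ library was above the higher control. The log2 change with IFN-γ was 1.44 for Parp9 (SE 0.0582, adjusted p = 1.46e-129, edgeR) and 1.36 for Dtx3l (SE 0.0619, adjusted p = 7.23e-103, edgeR), which placed them 190th and 208th. The 2 partners moved by similar factors. Per length of exon, Parp9 was 2.33 times Dtx3l in the control in normoxia (95% counting interval 2.20 to 2.46), 2.39 times in the control in hypoxia (2.27 to 2.51), 2.45 times with IFN-γ in normoxia (2.37 to 2.54) and 2.52 times with IFN-γ in hypoxia (2.44 to 2.60). The ratio thus spanned 2.33 to 2.52, while each gene by itself moved more than 2-fold. The genes share 367 exon bases on opposite strands, 10.3% of Parp9 exon and 6.41% of Dtx3l exon. Whether counting used strand is not given in the sources used here, so reads from these bases cannot be assigned with certainty.

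Parp10, Parp11 and Parp12 are mono-ADP-ribosyltransferases. Parp11 and Parp12 carry WWE domains, which bind ADP-ribose chains, and Parp12 also has zinc fingers. Parp10 had 1408, 1637, 3983 and 4496 counts, a log2 change of 1.49 (SE 0.0671, adjusted p = 3.01e-105, edgeR). Parp12 had 3340, 3633, 8389 and 9013 counts, a log2 change of 1.33 (SE 0.0583, adjusted p = 5.71e-111, edgeR). Parp11, with fewer reads, had 814, 855, 1751 and 1870 counts and a log2 change of 1.13 (SE 0.0783, adjusted p = 1.01e-44, edgeR). In each of the 3 genes the lower IFN-γ library had at least 2 times the counts of the higher control.

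A smaller rise was found in Parp3 and Parp8. Parp3 had 2958, 2645, 4776 and 4360 counts, and its log2 change was 0.72 (SE 0.0623, adjusted p = 1.02e-28, edgeR). Parp8, a family member whose function is little described, had the fewest reads of the 10, with 481, 507, 708 and 662 counts, and a log2 change of 0.48 (SE 0.0991, adjusted p = 3.59e-05, edgeR). Both genes were higher in each IFN-γ library than in each control. The Parp8 call was lost in 2 of 6 other fits, with an adjusted p of 0.145 by DESeq2 and 0.151 in edgeR without the oxygen term, over a range from 0.00107. The other 7 raised genes passed in all 6, with a highest adjusted p between 0.00023 for Parp14 and 0.0109 for Parp3, each reached in edgeR without the oxygen term.

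Parp1 was by far the most abundant of the 10, with 18572, 17439, 17123 and 17019 counts. Its log2 change with IFN-γ was -0.06 (SE 0.0499, adjusted p = 0.699, edgeR). The normoxic pair gave a log2 ratio of -0.10 (-0.13 to -0.07), which lies outside counting error, and the hypoxic pair gave -0.02 (-0.05 to 0.008). Parp2 had 1924, 1956, 1983 and 1919 counts and a log2 change of 0.02 (SE 0.071, adjusted p = 0.964, edgeR). Its single pairs gave 0.06 (-0.03 to 0.15) and -0.01 (-0.11 to 0.08). On the log2 scale, counting error alone thus leaves room for a rise of up to 0.15 in normoxia and a fall of up to 0.11 in hypoxia.

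**Figure D1:**
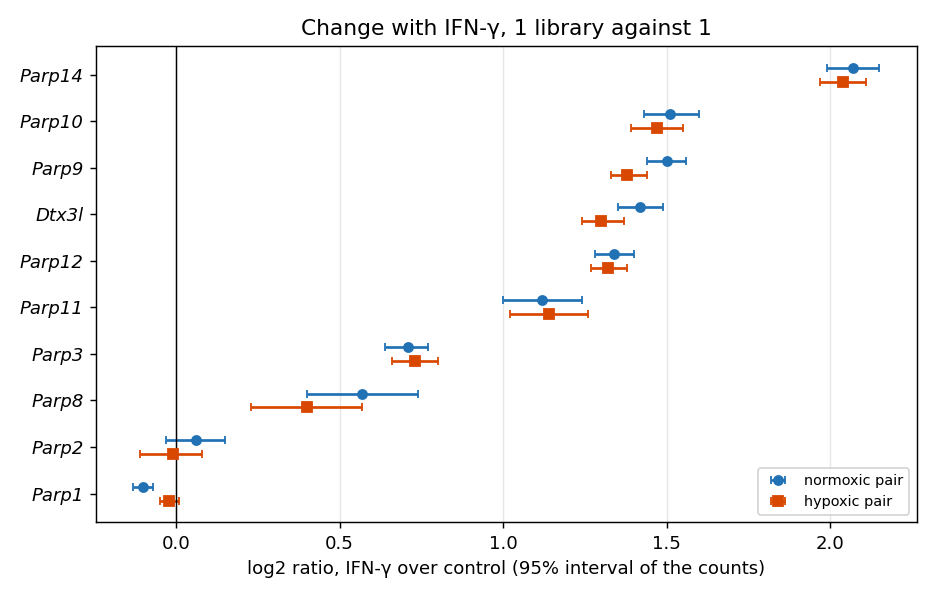
Log2 ratio of IFN-γ over control for each gene, from the normoxic pair of libraries (circles) and the hypoxic pair (squares), with 95% intervals of the counts. Parp14, Parp10, Parp9, Dtx3l, Parp12 and Parp11 lie above 1 in both pairs, Parp3 and Parp8 between 0.40 and 0.73, and Parp1 and Parp2 between -0.10 and 0.06.

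By the size of the change in single pairs, 6 of the 10 genes were at least 2-fold higher with IFN-γ in normoxia and the same number in hypoxia: Parp9, Parp10, Parp11, Parp12, Parp14 and Dtx3l in both. Among all tested genes, 2.92% reached this in normoxia and 2.82% in hypoxia, 1 library against 1.

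Because the changes differed, the order of the genes changed with treatment. Levels between genes were compared as CPM per kb of exon. Parp1 was highest in every library, at 138, 130, 129 and 128 CPM per kb, and Parp8 lowest, at 4.36 to 6.48. Parp14 stood at 6.66 and 7.75 in the controls and at 28.0 and 31.9 with IFN-γ. Parp1 was accordingly 20.8 times Parp14 per length in the control in normoxia and 4.02 times with IFN-γ in hypoxia. Parp9 and Parp12 reached 71.7 and 75.7 CPM per kb with IFN-γ in normoxia, from 25.4 and 29.9. Parp2, at 29.3 to 30.5 in all 4 libraries, had only Parp1 and Parp12 above it in the control in normoxia, and only Parp11 and Parp8 below it with IFN-γ in hypoxia. Some neighbours in the order did not differ beyond counting error. In the control in normoxia these were Parp12 and Parp2 (ratio 1.02, 0.962 to 1.08), Parp3 and Parp9, and Parp11 and Parp8. With IFN-γ in hypoxia they were Parp12 and Parp9, Parp3 and Parp10, and Dtx3l and Parp14. In the control in hypoxia, Parp9 and Parp2, and Parp11 and Parp8, were such pairs, and with IFN-γ in normoxia Parp2 and Dtx3l were (ratio 1.05, 0.993 to 1.10).

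**Figure D2:**
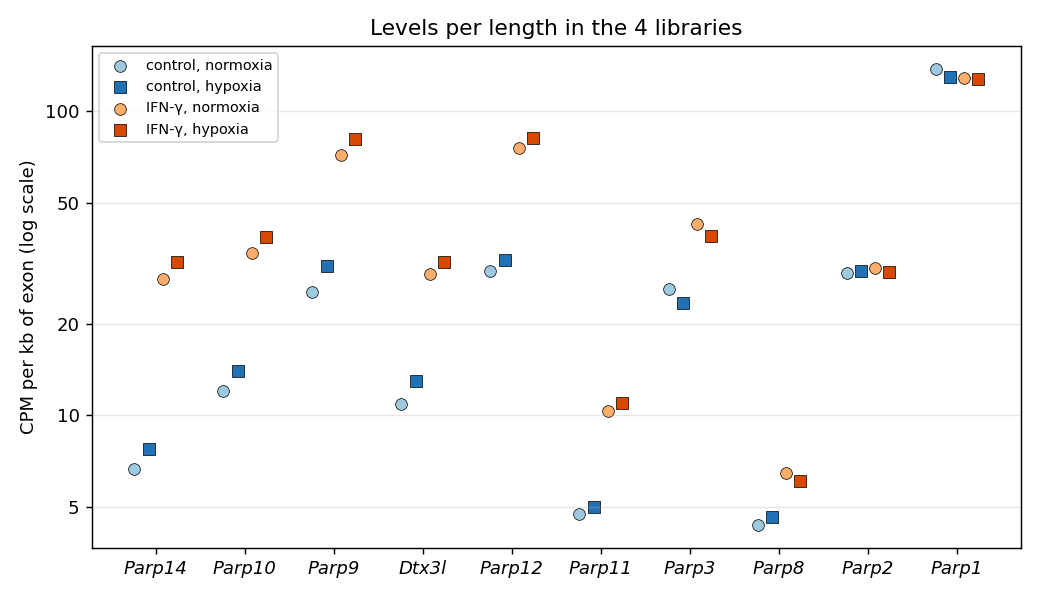
Level of each gene in CPM per kb of exon, on a log axis, in the 4 libraries, 1 point per library (circles, normoxia; squares, hypoxia; blue, control; orange, IFN-γ). The IFN-γ points lie above both control points in 8 genes, against 15.3% of all tested genes, and Parp1 stays between 128 and 138.

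The second question was whether oxygen changed these genes. In hypoxia, 4 of the 10 rose: Parp9 by 1.17-fold, Parp10 and Parp14 by 1.15-fold and Dtx3l by 1.14-fold. None fell. Over all tested genes, 8.21% were raised and 6.83% lowered by hypoxia. The median log2 change with hypoxia was 0.10 over the 10 genes and 0.005 over all tested genes. The count of 4 depends on the fit: DESeq2 called 1 of the 10, edgeR without a filter on low counts 2, and edgeR without the IFN-γ term 0.

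The log2 change of Parp9 with hypoxia was 0.23 (SE 0.0574, adjusted p = 0.00125, edgeR). It was 0.20 for Parp14 (SE 0.0609, adjusted p = 0.00936), 0.19 for Dtx3l (SE 0.0612, adjusted p = 0.0183) and 0.20 for Parp10 (SE 0.0662, adjusted p = 0.0254), by the same edgeR fit. All 4 were higher in the hypoxic library of both pairs, with counting intervals above 0. In CPM, 6 of the 10 genes and 33.9% of all tested genes were higher in hypoxia in both pairs. Parp9 gave 0.29 (0.22 to 0.36) without IFN-γ and 0.17 (0.13 to 0.21) with it, and Dtx3l gave 0.25 (0.17 to 0.34) and 0.13 (0.08 to 0.18). Parp14 gave 0.22 (0.12 to 0.31) and 0.19 (0.14 to 0.24). Parp10 gave 0.22 (0.12 to 0.32) and 0.18 (0.11 to 0.24). Parp14, Dtx3l and Parp9 on chromosome 16 and Parp10 on chromosome 15 were therefore called for both stimuli. In each the change with IFN-γ was the larger. Irf1, Stat2, Jak2, Nampt and Parp4, outside the 10, were also raised by both stimuli. The share of all tested genes called for both was not computed.

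Parp12 and Parp11 were also higher in hypoxia in both pairs, and neither passed the test. Parp12 had a log2 change of 0.11 (SE 0.0576, adjusted p = 0.184, edgeR) and Parp11 of 0.09 (SE 0.0778, adjusted p = 0.529, edgeR). Parp3 lay lower in hypoxia in both pairs, at -0.16 (-0.23 to -0.08) and -0.13 (-0.19 to -0.07), and its fitted change of -0.14 did not pass (SE 0.0621, adjusted p = 0.101, edgeR). Parp1 was lower in both as well, at -0.09 (-0.12 to -0.06) without IFN-γ and -0.007 (-0.04 to 0.02) with it. The ratios of Parp2 and Parp8 changed sign between the pairs, with intervals that include 0.

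**Figure D3:**
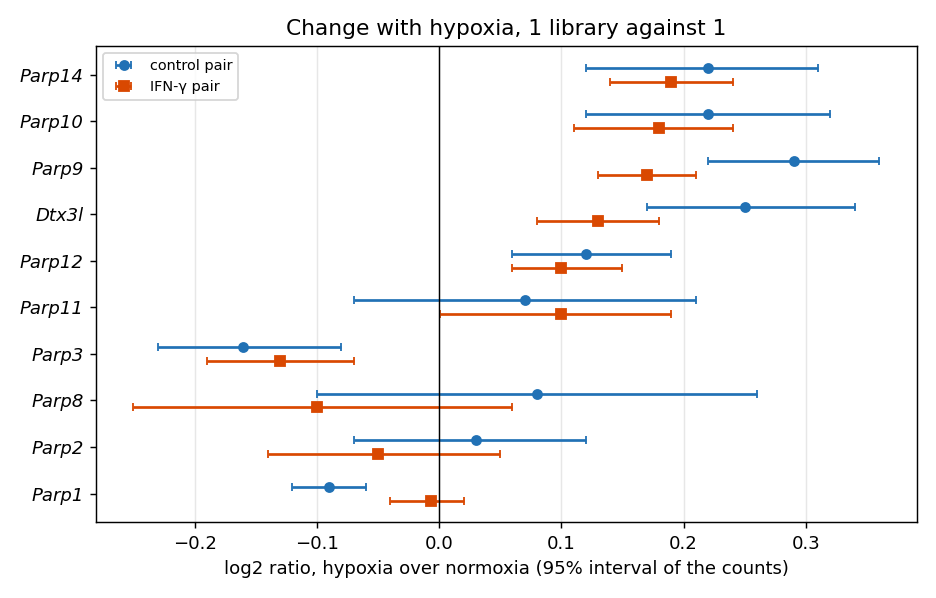
Log2 ratio of hypoxia over normoxia for each gene, without IFN-γ (circles) and with IFN-γ (squares), with 95% intervals of the counts, on a finer scale than that of the IFN-γ ratios. Parp14, Parp10, Parp9, Dtx3l and Parp12 lie above 0 in both pairs with their whole intervals, and Parp3 lies below 0.

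The third question was whether the IFN-γ change differed between hypoxia and normoxia. With 1 library per condition this difference could not be tested, and it is given as the hypoxic minus the normoxic log2 ratio with its counting interval. It was -0.12 for Parp9 (-0.20 to -0.04), -0.12 for Dtx3l (-0.22 to -0.02) and 0.08 for Parp1 (0.04 to 0.12). For the other 7 genes the interval included 0, as for Parp14 at -0.03 (-0.13 to 0.08) and Parp12 at -0.02 (-0.10 to 0.06). The widest interval was that of Parp8, at -0.17 (-0.41 to 0.06). Among the 10443 genes that had 100 or more counts in each of the 4 libraries, the central 95% of this difference ran from -0.36 to 0.40, and 34.5% of genes lay outside their own counting interval. All 10 genes fell within that central range. The IFN-γ ratio was smaller in hypoxia in 6 of the 8 raised genes. The median difference over the 10443 genes was itself -0.02. Among the raised genes, only Parp9 and Dtx3l had a counting interval wholly below 0. The level with IFN-γ was higher in hypoxia in 6 of the 8, Parp3 and Parp8 being the exceptions. For both of these counts of 6, the share over all tested genes was not computed, so they do not set the 8 genes apart.

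Around the 3 neighbours on chromosome 16, 7 other tested genes lie wholly or partly within 250 kb. Of these, 6 did not pass the test for IFN-γ, with log2 changes from -0.47 (Wdr5b) to 0.05 (Ccdc58). Kpna1, the next tested gene beyond Parp9, had 3685, 3590, 3841 and 3445 counts and a log2 change of 0.01 (SE 0.062, adjusted p = 0.978, edgeR). On the other side, Hspbap1 had a log2 change of 0.04 (SE 0.0802, adjusted p = 0.932, edgeR). The exception was Csta2, a gene of the stefin family of protease inhibitors, which had 7, 28, 88 and 162 counts and a log2 change of 2.89 (SE 0.31, adjusted p = 1.02e-18, edgeR). It overlaps only the far edge of the window, at 283 to 318 kb from the annotated start of Dtx3l. Stefin genes have similar copies, so its counts are uncertain. The genes around the 3 neighbours were looked at after the values of the 3 genes were known.

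**Figure D4:**
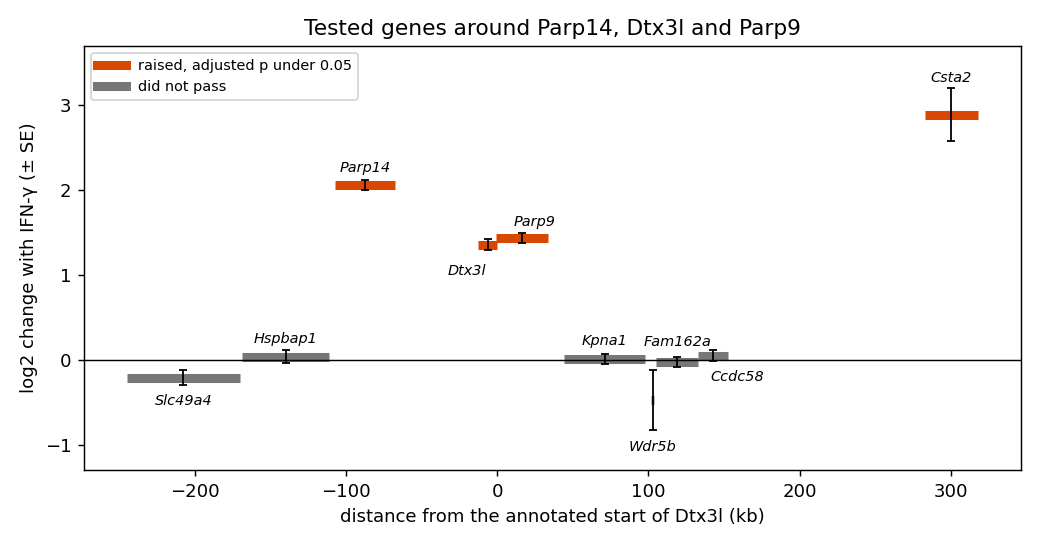
Log2 change with IFN-γ (± SE) of the 10 tested genes wholly or partly within 250 kb of Parp14, Dtx3l and Parp9, each bar drawn over the gene's extent as distance from the annotated start of Dtx3l in kb. Csta2 extends past the window. Orange bars mark the 4 genes that passed the test, and the 6 grey bars lie between -0.47 and 0.05.

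Of 7 other ADP-ribosyltransferases, 2 rose with IFN-γ, 0 fell, and their median log2 change was 0.02. Over all tested genes, 4.76% rose and 1.1% fell with IFN-γ. Zc3hav1, the zinc finger antiviral protein, which lacks transferase activity, had 3290, 3102, 4116 and 4247 counts and a log2 change of 0.40 (SE 0.062, adjusted p = 4.68e-09, edgeR). Parp4, the vault-associated member, had 763, 921, 909 and 1258 counts and a log2 change of 0.37 (SE 0.0831, adjusted p = 0.000283, edgeR). Beside 8.21% raised and 6.83% lowered by hypoxia over all tested genes, 3 of the 7 rose and 0 fell, with a median of 0.24. These were Parp16, a membrane protein of the endoplasmic reticulum, at 0.43 (SE 0.0825, adjusted p = 7.08e-06, edgeR), Parp4 at 0.38 (SE 0.0831, adjusted p = 0.000142, edgeR) and Tiparp, known as a target of the aryl hydrocarbon receptor, at 0.35 (SE 0.0667, adjusted p = 4.1e-06, edgeR). Parp6, Tnks and Tnks2 passed for neither stimulus. Calls in this list and in the lists below are from the edgeR fit with both terms alone.

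Genes that remove or read ADP-ribose did not pass the test for either stimulus: 0 of 9 tested, with a median log2 change of -0.04 with IFN-γ and 0.01 with hypoxia. The same held for the 3 tested Deltex ligases related to Dtx3l (medians -0.02 and 0.12) and for the 5 repair partners of Parp1 and Parp2 (medians -0.04 and -0.05). Among all tested genes, 4.76% were raised and 1.1% lowered by IFN-γ, and 8.21% and 6.83% by hypoxia. In lists of this size, 0 calls therefore does not set these genes apart. Of 10 tested genes of NAD+ supply and use, only Nampt, the rate-limiting enzyme of NAD+ salvage from nicotinamide, passed. It had 6154, 9062, 9138 and 11801 counts and rose with both IFN-γ (log2 change 0.49, SE 0.0542, adjusted p = 1.76e-17, edgeR) and hypoxia (log2 change 0.46, SE 0.0542, adjusted p = 1.35e-15, edgeR). The medians of this list were -0.01 and 0.17.

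In the IFN-γ signalling list, 4 of the 7 genes reported rose with IFN-γ and 1 fell, with a median log2 change of 0.56. The shares over all tested genes were 4.76% and 1.1%. Irf1, a transcription factor, had 3770, 4422, 20118 and 23759 counts, a log2 change of 2.43 (SE 0.0548) beside 2.06 for Parp14. Stat2 rose by 1.51 on the log2 scale (SE 0.0591), Irf9 by 0.82 (SE 0.0708) and Jak2 by 0.56 (SE 0.0751), and the receptor chain Ifngr1 fell by 0.25 (SE 0.078, adjusted p = 0.0308, edgeR). With hypoxia, 5 of the 7 rose and 0 fell, against 8.21% and 6.83% of all tested genes. The log2 changes were 0.24 (Ifngr1 and Irf1), 0.25 (Stat2), 0.29 (Jak1) and 0.30 (Jak2), and the median of the list was 0.24.

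The genes with the most similar profiles over the 4 libraries were found by the Euclidean distance between centred log2 CPM, among 11488 other genes whose mean count was 50 or more. With 4 libraries, of which IFN-γ separates 2 from 2, this is a description only. Nearest to Parp9 were Trim34a (distance 0.042, a TRIM family gene), Pik3ip1 (0.0487, an inhibitor of PI3 kinase) and Parp10 (0.0715), and Dtx3l came next (0.0858). Nearest to Dtx3l were Pik3ip1 (0.0655), H2-Q4 (0.0815, an MHC class I gene of a family with similar copies, whose counts are uncertain for that reason) and Parp9 (0.0858). Pik3ip1 had only 120, 150, 336 and 370 counts, and Trim34a 261, 324, 719 and 839. The distances have no counting interval, so the order among these near genes is not established. Parp14 was nearest to Tap1 (0.0526) and Tap2 (0.104), the subunits of the peptide transporter of MHC class I presentation, and to Trim21 (0.106, a cytosolic antibody receptor). Tap1 had 4672, 5179, 18913 and 21213 counts, with IFN-γ log2 ratios of 2.03 and 2.05 beside 2.07 and 2.04 for Parp14. Parp9, its neighbour in the genome, was only the 58th gene from Parp14 by this distance (0.619).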

How the data were processed

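RNA was taken from MC38 cells, 1 library per condition. Per the labels, poly-A RNA was made into strand-specific libraries (dUTP) and sequenced in pairs on a DNBSEQ instrument. The study's methods name HISAT2, and the submitters' processing notes name featureCounts and mm10. Annotation, strand setting and treatment of reads with several matches are not given in the sources used here. The authors deposited raw read counts per NCBI gene ID. No column was left without a sample, and 25275 of 27179 IDs matched a RefSeq symbol.

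Genes were tested with edgeR 4.0.16 in R 4.3.3 (TMM, filterByExpr at a minimum count of 10, quasi-likelihood test, terms for oxygen and IFN-γ, Benjamini-Hochberg over 13580 genes at 0.05). The SE is the log2 change divided by the square root of F. The common dispersion was 0.00222, a coefficient of variation of 4.71%. Single-pair ratios used TMM-normalized counts with 0.5 added and 95% Clopper-Pearson intervals, and differences used Poisson intervals. Exon lengths came from GENCODE vM21. IFN-γ comparisons and hypoxia comparisons use the same 4 libraries.

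Genes and lists were chosen with earlier results of these data known. Named were the 10 genes, list members that passed a test, and the 3 nearest profiles of Parp9, Dtx3l and Parp14. The locus neighbours were added later. Alternatives were DESeq2 1.42.0 size factors or Wald test, total counts, no filter, at least 10 counts in every library, no term for the other stimulus, a log2 change of at least 1, single pairs, and 5 counts added. Protein comparisons were not analysed here. A gene of the IFN-γ signalling list is not reported here.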

Additional observations from a re-analysis of the deposited data

Results flagged for a closer look

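The ratios of Parp2 and Parp8 had opposite signs in the pairs of libraries, which brought them up for a closer look. Parp2 had a log2 ratio of 0.06 with IFN-γ in normoxia and -0.01 in hypoxia, and with hypoxia 0.03 without IFN-γ and -0.05 with it. For Parp8, the log2 ratio with hypoxia was 0.08 without IFN-γ (-0.10 to 0.26) and -0.10 with it (-0.25 to 0.06). All these counting intervals include 0, and the differences were not tested.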

How the results depend on the processing

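Of the 10 genes, 7 or 8 were raised by IFN-γ in each alternative fit, 6 when a log2 change of at least 1 was also required, and 0 were lowered in any. The count raised by hypoxia was 4, and it was 1 with DESeq2's Wald test, 2 without a filter on low counts, 0 without the IFN-γ term and 0 with a log2 change of at least 1. The adjusted p for hypoxia over the 6 alternative fits ranged from 0.00461 to 0.905 for Parp9, 0.0147 to 0.939 for Parp14, 0.0268 to 0.921 for Dtx3l and 0.0318 to 0.918 for Parp10. Without a term for the other stimulus, that stimulus enters the spread, and hypoxia calls over all genes went from 1115 raised and 927 lowered to 150 and 26. DESeq2 made 360 and 203. For IFN-γ, all genes gave 647 raised and 149 lowered, 239 and 3 without the oxygen term and 353 and 16 with DESeq2. No value changed from a rise to a fall among called genes. No replicate could be left out and no paired analysis was possible because each condition has 1 library. Variation between cultures was not measured on its own, and intervals cover counting error only, so the small changes with hypoxia rest on 1 culture per condition.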
